A study of Fukomys damarensis and Heterocephalus glaber and Cavia porcellus with 28 samples.

Results

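The growth hormone and insulin-like growth factor (IGF) axis was described here through 10 genes in heart and liver of 4 rodents: mouse, guinea pig, Damaraland mole-rat and naked mole-rat. The genes were chosen by symbol: the ligands Igf1 and Igf2, the receptors Ghr, Igf1r and Insr, the binding proteins Igfbp1, Igfbp2, Igfbp3 and Igfbp4, and the acid-labile subunit gene Igfals. All 10 have a row among the 13928 rows of each tissue's table, and 8 of 10 in heart and 10 of 10 in liver passed the filter on low values and were tested. The study set 2 long-lived subterranean mole-rats beside 2 outgroups, by RNA sequencing of total RNA depleted of ribosomal RNA. Heart came from 3 naked mole-rats aged 13 to 17 months, 5 Damaraland mole-rats aged 36 or 48 months, 3 guinea pigs aged 2.3 months and 3 mice aged 2 months. Liver came from 4 naked mole-rats aged 13 to 17 months, 5 Damaraland mole-rats aged 36 or 48 months, 3 guinea pigs aged 2.3 months and 2 mice aged 2 months. For 1 Damaraland mole-rat the age label differed between its heart (48 months) and its liver (36 months). No treatment or engineered allele is named for any group, and strains and breeding status are not given in the sources used here. The animals were male except for 1 female, the Damaraland liver replicate 4, and 10 of the 18 animals named gave both tissues. Since each species was sampled in its own age range, species and age cannot be told apart in any comparison. The gene models on which each species was counted are not given in the sources used here, so a difference in level and a difference in gene model or in the assignment of genes across species cannot be told apart. Sites and housing are not given either.

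Growth hormone from the pituitary binds its receptor GHR on hepatocytes and, through the kinase JAK2 and the transcription factor STAT5B, drives transcription of Igf1 and Igfals. IGF1 and IGF2 act on the IGF1 receptor, while IGF2 and insulin also act on the insulin receptor, and in blood most IGF travels in a complex with IGFBP3 and the acid-labile subunit. The other binding proteins hold IGFs in smaller complexes: IGFBP1 is made by the liver under the control of insulin and feeding, and IGFBP4 is cut by the protease PAPP-A. In mice and rats the liver makes IGF2 mainly before weaning, and adult growth signalling rests on IGF1.

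The deposited values are variance-stabilised read counts on a log2-like scale, and a difference of 1 is near a 2-fold change only for abundant genes: from 100 scaled reads, 2-fold moved the value by 0.68 in heart and 0.80 in liver. A gene with 0 reads sits at 5.36 in heart and 4.29 in liver. Scaled reads are reads recovered from the values and put on a common depth by the size factor of each library. Total recovered reads per library ran from 4089633 to 26985779 in heart, the lowest being the naked heart replicate 3, and from 11220505 to 21467939 in liver. The tissue labels were matched by the marker lists: in heart the 8 cardiomyocyte genes summed to at least 770702 scaled reads in every library and in liver to at most 3749, and 7 of 8 hepatocyte genes with a row summed to at least 890414 in every liver. Hearts of the naked mole-rat held more hepatocyte transcripts (11236 to 31653 scaled reads summed) than those of the Damaraland mole-rat (3542 to 6948), the guinea pig (3859 to 5572) and the mouse (361 to 1248). Apoa1 made up a large part of the sums of the Damaraland mole-rat and the guinea pig, and guinea pig livers had only 56.2 to 211 scaled reads of it. Without Apoa1 the heart sums were 10988 to 31198 in the naked mole-rat, 1790 to 5182 in the Damaraland mole-rat, 435 to 2005 in the guinea pig and 332 to 1170 in the mouse. A gene is called here at a limma adjusted p under 0.05 and a difference of at least 1, in a fit of all 14 libraries of the tissue and over all genes tested. Nothing in the labels says whether libraries of a species came from separate litters, so the p-values measure the spread between these animals.

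No member was called the same way in both mole-rats against both outgroups. By limma, 0 of 8 members in heart and 0 of 10 in liver were called with the same sign in all 4 contrasts of a mole-rat with an outgroup, where 4.68% of all genes tested in heart and 6.29% in liver were. With so few genes, counts of 0 lie near these shares. At an unadjusted p under 0.05 in all 4 contrasts, the count was 1 in heart, Igfbp4, and 0 in liver, and limma's voom on the recovered reads gave 1 and 0. How many of all genes met these other criteria in all 4 contrasts was not counted. Called differences lay between single pairs of species. Over the 6 species pairs, 20 of 48 gene-by-pair differences were called in heart and 25 of 60 in liver, beside 32.9% and 37.6% over all genes tested. In heart the calls fell on 7 genes and in liver on 8. The share of all genes with a call in any pair was not counted. Groups that do not overlap were common at these sample sizes: between 51.8% and 74.2% of all genes tested in heart and between 57% and 71.9% in liver did not overlap in a given species pair. The pairwise differences plotted by gene and species pair show that Igf2 and Igfbp3 differed between most species in both tissues, while Insr in heart and Ghr and Igf1r in liver differed by less than 1 between every pair.

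**Figure D1:**
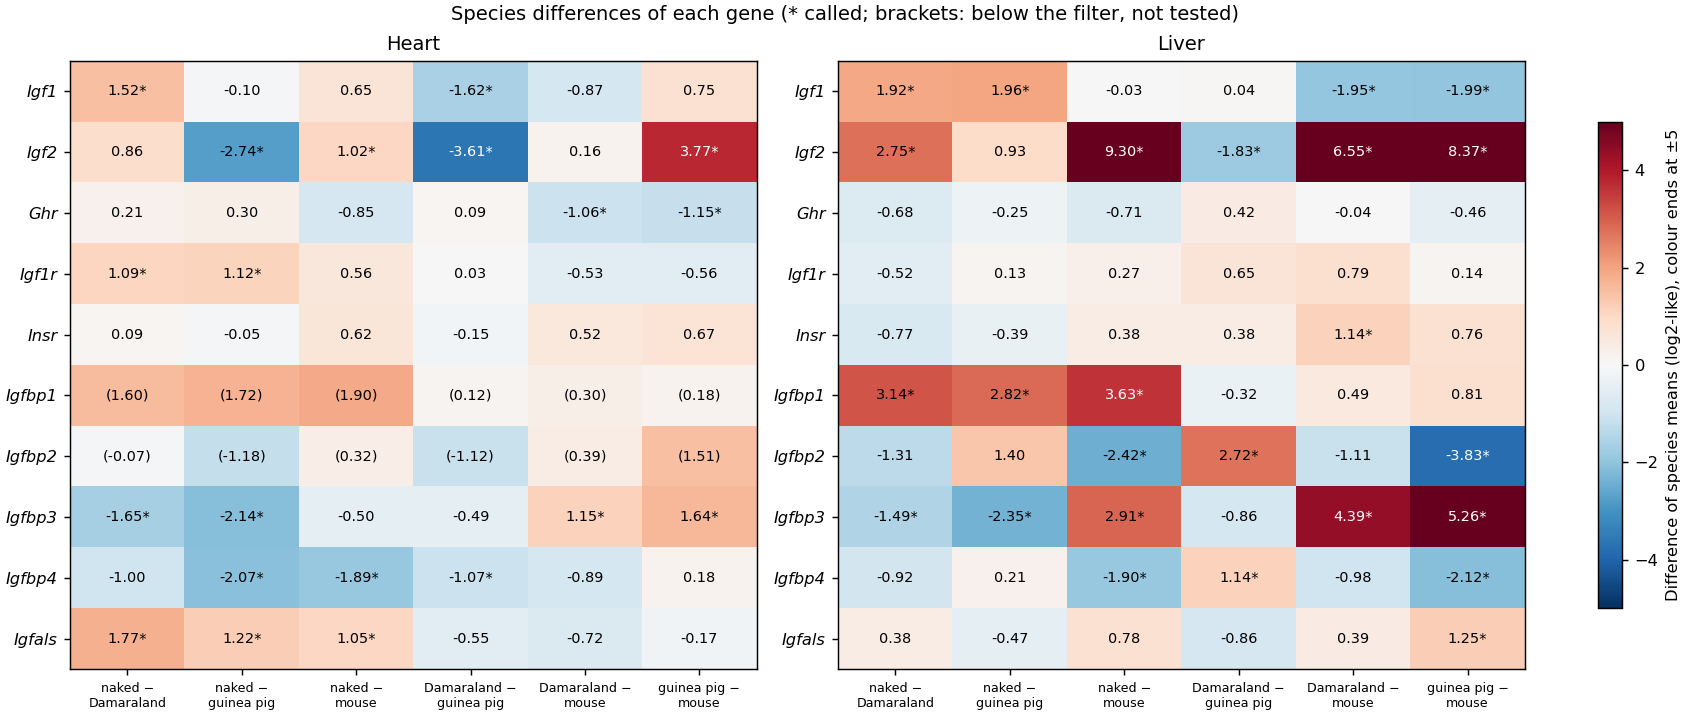
Differences of species means (first species minus second, log2-like scale) for each gene (rows) and species pair (columns) in heart and liver; asterisks mark differences called by limma, and brackets mark genes below the filter in heart. Igf2 in liver differed from mouse by 6.55 to 9.30 in the other 3 species, and Insr in heart differed by at most 0.67 in any pair.

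In liver, Igf2 was abundant in 3 species and nearly silent in the mouse. Igf2 (ENSMUSG00000048583), the growth factor best known from fetal life, had values of 14.75, 14.98, 14.88 and 14.73 in the naked mole-rats and of 11.41, 12.26, 11.84, 12.54 and 12.36 in the Damaraland mole-rats. The guinea pigs had 13.81, 13.76 and 14.15, and the mice had 6.05 and 5.02, from 28 and 7 reads. The 4 species did not overlap: the naked mole-rat was highest, followed by the guinea pig, the Damaraland mole-rat and, far below, the mouse. In mean scaled reads, the naked mole-rat had 29239, the guinea pig 15447, the Damaraland mole-rat 4459 and the mouse 19.1. Naked livers exceeded mouse livers by 9.30 ± 0.30 (SE; limma adjusted p = 6.86e-14), the guinea pig did so by 8.37 ± 0.31 (limma adjusted p = 1.01e-12), and the Damaraland mole-rat by 6.55 ± 0.29 (limma adjusted p = 5.05e-12). Between the mole-rats the difference was also called, with the naked mole-rat higher by 2.75 ± 0.23 (limma adjusted p = 1.21e-08), a 6.56-fold ratio of mean scaled reads. The Damaraland mole-rat lay below the guinea pig, with a difference of -1.83 ± 0.25 (limma adjusted p = 5.74e-06). The naked mole-rat and the guinea pig, neighbours in the order, differed by 0.93 ± 0.26 (limma adjusted p = 0.0049), short of the size needed for a call. Reads from Igf2 and its antisense partner Igf2os cannot be told apart here, since the use of strand in counting is not given in the sources used here.

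Liver Igf1 split the species in another way, with the naked mole-rat level with the mouse and the Damaraland mole-rat level with the guinea pig. Igf1 (ENSMUSG00000020053), the main growth hormone-induced IGF of adult blood, had values of 13.83, 13.46, 13.82 and 13.44 in naked mole-rats and 13.54 and 13.80 in mice. The Damaraland mole-rats had 11.94, 11.69, 11.98, 12.03 and 10.96, and the guinea pigs 11.95, 11.36 and 11.72. Every naked and mouse library stood above every Damaraland and guinea pig library, and within each of these 2 pairs of species the ranges overlapped. The naked mole-rat exceeded the Damaraland mole-rat by 1.92 ± 0.21 (limma adjusted p = 3.56e-07) and the guinea pig by 1.96 ± 0.24 (limma adjusted p = 1.44e-06), ratios of 3.71 and 3.90 in mean scaled reads. Against the mouse, the Damaraland mole-rat differed by -1.95 ± 0.26 (limma adjusted p = 5.07e-06) and the guinea pig by -1.99 ± 0.28 (limma adjusted p = 1.31e-05). The naked mole-rat differed from the mouse by -0.03 (95% interval -0.60 to 0.54), and the Damaraland mole-rat from the guinea pig by 0.04 (95% interval -0.44 to 0.52). The average of the mole-rats differed from the average of the outgroups by 0.01 (95% interval -0.37 to 0.38), although 4 of the 6 species pairs were called. These near-zero differences changed sign under some settings, within the intervals given.

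**Figure D2:**
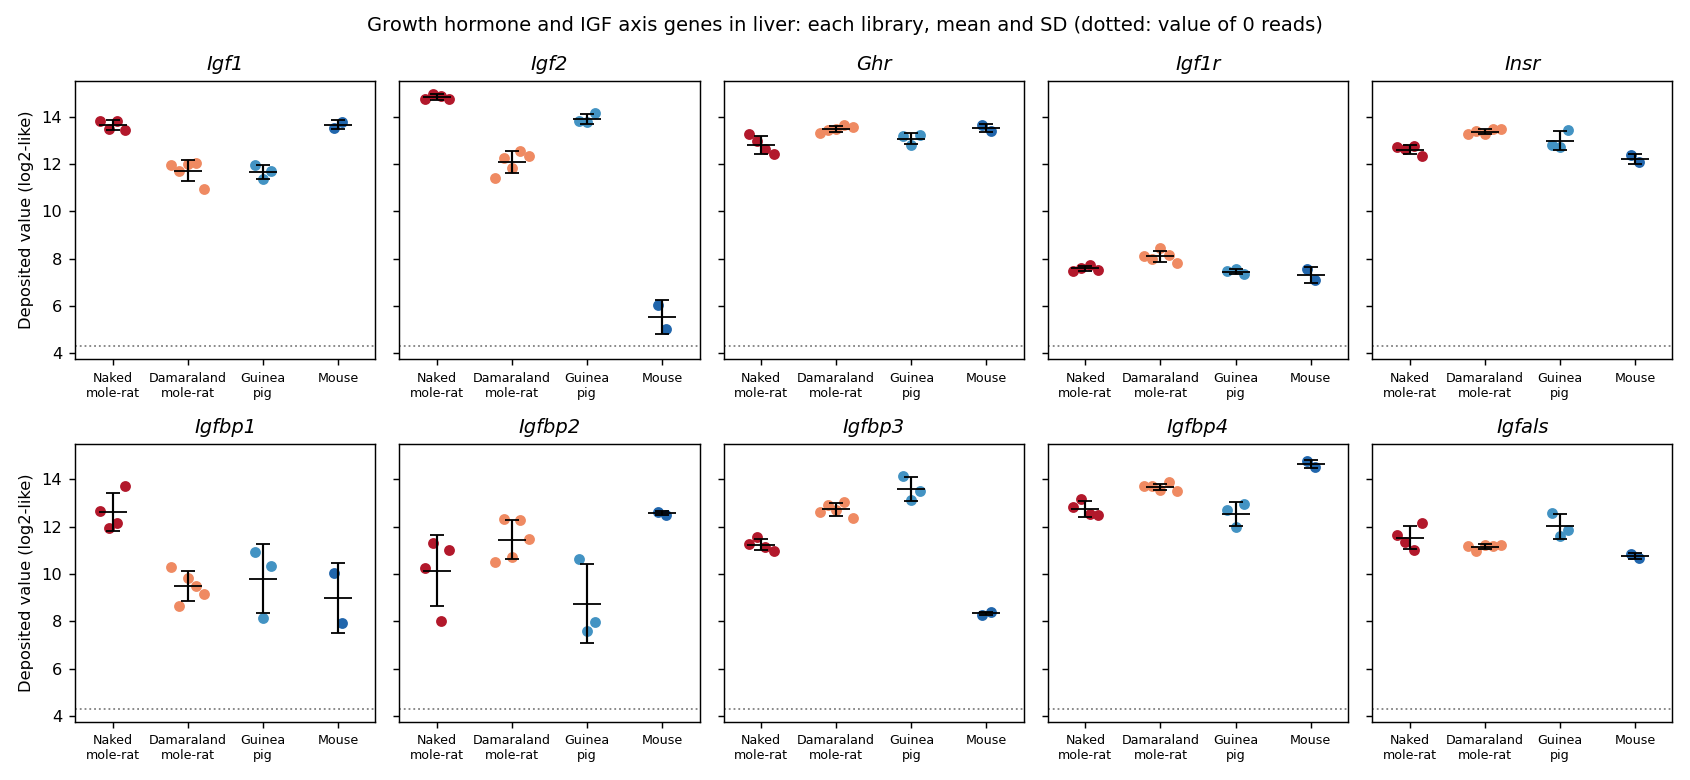
Deposited values (log2-like, vertical axis) of the 10 genes in each liver library, by species; bars are the mean and SD, and the dotted line is the value of 0 reads. Igf2 of the 2 mice lies at 6.05 and 5.02, against 11.41 or more in every other library, and Igf1 of naked mole-rat and mouse lies above that of the other 2 species.

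Of the receptors in liver, Ghr and Igf1r were called in 0 species pairs and Insr in 1. Ghr (ENSMUSG00000055737), the growth hormone receptor, ranged over all libraries from 12.41 to 13.67, and its means ran from 12.81 in the naked mole-rat to 13.53 in the mouse. The naked mole-rat differed from the Damaraland mole-rat by -0.68 ± 0.18 (limma adjusted p = 0.0028) and from the mouse by -0.71 ± 0.23 (limma adjusted p = 0.012), both short of the size for a call. Igf1r (ENSMUSG00000005533), the receptor through which both IGFs signal, was highest in the Damaraland mole-rat, at 8.11 ± 0.23 (SD, n = 5) against 7.32 to 7.59 in the other species' means. The Damaraland difference was 0.79 ± 0.19 from the mouse (limma adjusted p = 0.0013), 0.65 ± 0.16 from the guinea pig (limma adjusted p = 0.0020) and -0.52 ± 0.15 for naked minus Damaraland (limma adjusted p = 0.0052). At an unadjusted p under 0.05, 3 of 6 pairs passed for Ghr and 3 of 6 for Igf1r, while 0 were called for either by limma on the deposited values. The voom fit called 0 for Ghr and 1 for Igf1r, the Damaraland mole-rat over the mouse. Insr (ENSMUSG00000005534), the insulin receptor, followed the same order at the top. Its values were 13.26, 13.38, 13.28, 13.48 and 13.47 in Damaraland livers and 12.38 and 12.08 in mouse livers, without overlap. The difference of 1.14 ± 0.21 was called (limma adjusted p = 1.28e-04), and without mouse liver replicate 2 it fell to 0.99 and was no longer called.

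Among the binding proteins, Igfbp1 stood apart in naked mole-rat liver. Igfbp1 (ENSMUSG00000020429), whose hepatic transcription rises in fasting and falls with insulin, had values of 12.65, 11.94, 12.17 and 13.71 in naked livers. The Damaraland livers had 10.31, 8.64, 9.83, 9.50 and 9.15, the guinea pig livers 10.93, 8.14 and 10.33, and the mouse livers 10.05 and 7.94. The lowest naked library stood above the highest library of any other species, while the other 3 species overlapped one another. The naked mole-rat exceeded the Damaraland mole-rat by 3.14 ± 0.53 (limma adjusted p = 5.26e-05), the guinea pig by 2.82 ± 0.60 (limma adjusted p = 5.45e-04) and the mouse by 3.63 ± 0.68 (limma adjusted p = 1.75e-04). In mean scaled reads this was 7070 against 735, 1137 and 614. Igfbp1 was the one gene of the 10 shifted in the naked liver alone, where 10.3% of all genes tested were. Its spread between animals was wide: its residual SD of 1.0 exceeded that of 99.7% of genes tested in liver, the median being 0.26. Feeding state and time of day at sampling are not given in the sources used here.

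Igfbp2 (ENSMUSG00000039323), another IGF carrier made by the liver, varied even more between animals of a species. Values were 10.25, 11.31, 8.01 and 11.02 in naked livers, 10.51, 12.32, 10.72, 12.27 and 11.47 in Damaraland livers, 10.66, 7.58 and 7.99 in guinea pig livers, and 12.63 and 12.51 in mouse livers. The mice were the highest, the guinea pigs and the naked mole-rats reached the lowest values, and 1 guinea pig and 1 naked mole-rat stood well apart from the others of their species. Its residual SD of 1.23 exceeded that of 99.9% of genes tested. The guinea pig lay below the mouse by a difference of -3.83 ± 0.88 (limma adjusted p = 0.0012), and the Damaraland mole-rat above the guinea pig by 2.72 ± 0.70 (limma adjusted p = 0.0026). For the naked mole-rat against the mouse the difference of -2.42 ± 0.83 was called (limma adjusted p = 0.017), but not without the filter on low values (limma adjusted p = 0.056), with robust variance estimates (0.054), or without mouse liver replicate 1 (-2.36, limma adjusted p = 0.087) or replicate 2 (-2.48, limma adjusted p = 0.074). Leaving out a mouse liver leaves 1 mouse, which is then assumed to vary like the other species.

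Igfbp3 (ENSMUSG00000020427), the carrier of most circulating IGF, was lowest in mouse liver. The mice had values of 8.29 and 8.39, the naked mole-rats 11.29, 11.57, 11.14 and 10.99, the Damaraland mole-rats 12.64, 12.91, 12.70, 13.04 and 12.37, and the guinea pigs 14.16, 13.13 and 13.50. The 4 species again did not overlap, in the order guinea pig, Damaraland mole-rat, naked mole-rat and mouse. Against the mouse the guinea pig was higher by 5.26 ± 0.27 (limma adjusted p = 4.75e-11), the Damaraland mole-rat by 4.39 ± 0.25 (limma adjusted p = 1.09e-10) and the naked mole-rat by 2.91 ± 0.25 (limma adjusted p = 2.94e-08). These are ratios of 45.1, 23.9 and 8.44 in mean scaled reads. The naked mole-rat lay below the Damaraland mole-rat, with a difference of -1.49 ± 0.20 (limma adjusted p = 3.57e-06), and below the guinea pig, with -2.35 ± 0.22 (limma adjusted p = 7.28e-08). Igf2 and Igfbp3 were the 2 of 10 genes shifted in the mouse liver alone, where 12.2% of all genes tested were, and 0 of 10 were in the Damaraland liver (8.81%) or the guinea pig liver (9.38%).

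Non-parenchymal liver cells are a known source of Igfbp3, and the summed markers of some of them stood lower in mouse liver. The 9 endothelial genes with a row summed to 4268 and 5246 scaled reads in the mouse and to at least 8147 in every other liver, and the 9 fibroblast and stellate genes to 5953 and 6263 in the mouse and at least 6670 elsewhere. Much of the fibroblast and stellate sum was Reln, with 1947 to 2064 scaled reads in mouse livers and 3052 to 4637 in the others. Not every marker or list followed. Dcn had 692 to 1136 scaled reads in mouse livers against 77.9 to 179 in naked and 35.1 to 65.2 in Damaraland livers. Lrat (498 to 672 in the mouse) stood above the Damaraland range (72.3 to 208). Lum (76.1 to 143) and the endothelial Egfl7 (260 to 263) stood above the naked ranges (15.2 to 56.6 and 113 to 184). The macrophage sums of the mouse (2996 and 3476) lay within the Damaraland range (2716 to 4175). Naked livers had a fibroblast and stellate sum of 9510 to 13809 against 6670 to 10074 in Damaraland livers, with lower Igfbp3. The part of these cells in the Igfbp3 difference was not tested, and in whole tissue fewer cells of a type and less RNA per cell cannot be told apart. The hepatocyte sums of the mouse livers lay within the range of the other species.

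Igfbp4 (ENSMUSG00000017493), a carrier that restrains IGF until it is cut, was highest in the mouse. Its values were 14.78 and 14.54 in mice, 13.73, 13.73, 13.55, 13.88 and 13.53 in Damaraland mole-rats, 12.83, 13.19, 12.53 and 12.48 in naked mole-rats, and 12.73, 11.97 and 12.94 in guinea pigs. Mouse, then Damaraland, then the overlapping naked mole-rat and guinea pig was the order. The naked mole-rat differed from the mouse by -1.90 ± 0.26 (limma adjusted p = 5.86e-06) and the guinea pig did so by -2.12 ± 0.27 (limma adjusted p = 4.11e-06). The Damaraland mole-rat exceeded the guinea pig by 1.14 ± 0.22 (limma adjusted p = 2.07e-04), a call lost without guinea pig liver replicate 2 (0.85) and with array weights (0.93). Igfals (ENSMUSG00000046070), whose product stabilises the circulating IGF complex, varied less. Its means were 12.02 in the guinea pig, 11.54 in the naked mole-rat, 11.16 in the Damaraland mole-rat and 10.77 in the mouse, and neighbours in this order did not differ by as much as 1. Only the guinea pig and the mouse, at the ends, differed by a called amount, 1.25 ± 0.29 (limma adjusted p = 0.0013), which fell to 0.96 and was not called without guinea pig liver replicate 1.

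Counted by pair in liver, 4 of 10 members were called between the mole-rats (34.2% of all genes tested), 3 between naked mole-rat and guinea pig (37.8%) and 5 between naked mole-rat and mouse (41.2%). Between Damaraland mole-rat and guinea pig 3 were called (36.2%), between Damaraland mole-rat and mouse 4 (39.2%), and between guinea pig and mouse 6 (37.2%). The last pair held the most calls, of Igf1, Igf2, Igfbp2, Igfbp3, Igfbp4 and Igfals. With 10 genes a share is coarse, and none was tested against the background. Averaged over species, 3 of 10 were called, all higher in the mole-rats (28.1% of all genes tested were called, and 15.1% higher): Igf2 by 3.74 ± 0.19 (limma adjusted p = 3.26e-11), Igfbp1 by 1.65 ± 0.45 (limma adjusted p = 0.0034) and Igfbp3 by 1.02 ± 0.17 (limma adjusted p = 3.64e-05). None of the 3 held in all 4 mole-rat against outgroup contrasts, and for Igf2 and Igfbp3 the outgroups lay 8.37 and 5.26 apart from each other. The Igfbp1 call was lost without mouse liver replicate 2 (1.13, limma adjusted p = 0.056), and the Igfbp3 average fell to between 0.90 and 1.0 and was not called without any 1 of naked replicate 2, Damaraland replicate 2 or 4, guinea pig replicate 2 or 3, or mouse replicate 1.

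In heart the guinea pig, not the naked mole-rat, had the most Igf2. The guinea pig hearts had Igf2 values of 13.23, 13.39 and 13.48, against 10.69, 10.73 and 10.44 in naked hearts, 9.75, 9.53, 9.63, 9.42 and 10.46 in Damaraland hearts, and 10.20, 9.41 and 9.19 in mouse hearts. The guinea pig stood above every other library by more than 2, and the Damaraland and mouse ranges overlapped. The guinea pig exceeded the mouse by 3.77 ± 0.26 (limma adjusted p = 4.10e-09), a 14.3-fold ratio of mean scaled reads. The Damaraland mole-rat differed from the guinea pig by -3.61 ± 0.24 (limma adjusted p = 1.57e-09) and the naked mole-rat did so by -2.74 ± 0.26 (limma adjusted p = 1.78e-07). Igf2 was the one member shifted in the guinea pig heart alone, where 6.61% of all genes tested were. Naked hearts exceeded mouse hearts by 1.02 ± 0.26 (limma adjusted p = 0.0028), which was no longer called without naked heart replicate 1 (0.99) or 2 (0.97) or mouse heart replicate 2 (0.93) or 3 (0.82). Mouse heart Igf2, at a mean of 733 scaled reads, was well above the value of 0 reads, unlike in mouse liver.

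**Figure D3:**
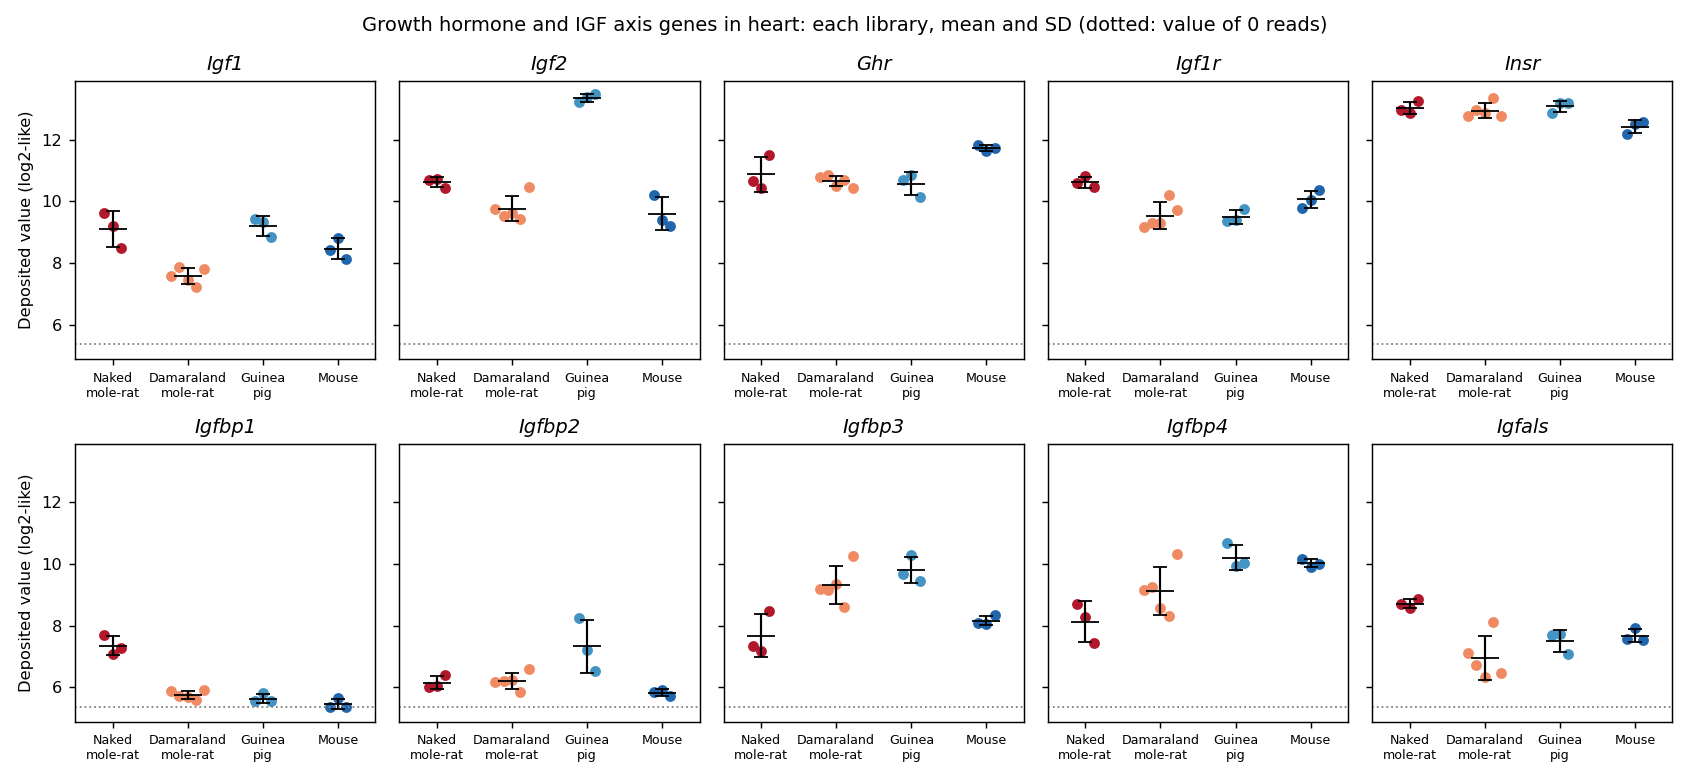
Deposited values (log2-like, vertical axis) of the 10 genes in each heart library, by species; bars are the mean and SD, and the dotted line is the value of 0 reads. Igf2 lies at 13.23 to 13.48 in guinea pig hearts and at 10.73 or less elsewhere, and Igfbp1 rises above the dotted line mainly in naked hearts, at 7.09 to 7.69.

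Heart Igf1 was lowest in the Damaraland mole-rat. Values there were 7.57, 7.87, 7.44, 7.24 and 7.80, against 9.62, 9.21 and 8.49 in naked hearts, 9.44, 9.33 and 8.84 in guinea pig hearts and 8.41, 8.82 and 8.14 in mouse hearts. No Damaraland library reached the range of any other species, and the other 3 species' ranges adjoined or overlapped. The naked mole-rat exceeded the Damaraland mole-rat by 1.52 ± 0.24 (limma adjusted p = 3.63e-05), and the Damaraland mole-rat differed from the guinea pig by -1.62 ± 0.24 (limma adjusted p = 1.80e-05). The Damaraland difference from the mouse was -0.87 ± 0.24 (limma adjusted p = 0.0040), short of the size for a call on this scale. It was called by voom on the recovered reads (-1.24) and without mouse heart replicate 3 (-1.03). The Damaraland mole-rat thus had lower Igf1 than the naked mole-rat in both tissues.

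Of the receptors in heart, Ghr was highest in the mouse and Igf1r in the naked mole-rat. Ghr had values of 11.81, 11.64 and 11.72 in mouse hearts, above those of the Damaraland (10.79, 10.85, 10.51, 10.70 and 10.44), guinea pig (10.71, 10.86 and 10.15) and naked hearts (10.67, 10.43 and 11.52). The naked heart replicate 3, the shallowest library, lay near the mouse range while the other 2 naked hearts lay with the remaining species. The Damaraland mole-rat differed from the mouse by -1.06 ± 0.22 (limma adjusted p = 4.34e-04) and the guinea pig by -1.15 ± 0.25 (limma adjusted p = 7.01e-04). These calls sat close to the size threshold: the first was lost with libraries centred on their medians (-1.0) or quantile-normalised (-0.93), and the second without guinea pig heart replicate 3 (-0.94). The naked difference from the mouse, -0.85 ± 0.25 (limma adjusted p = 0.0061), was called without naked heart replicate 3 (-1.17) and with array weights (-1.10).

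Igf1r had values of 10.59, 10.82 and 10.47 in naked hearts, 9.17, 9.29, 9.29, 10.20 and 9.72 in Damaraland hearts, 9.37, 9.38 and 9.76 in guinea pig hearts and 9.78, 10.05 and 10.35 in mouse hearts. The naked range was above all others, and the Damaraland, guinea pig and mouse ranges overlapped or adjoined. The naked mole-rat exceeded the Damaraland mole-rat by 1.09 ± 0.22 (limma adjusted p = 3.74e-04) and the guinea pig by 1.12 ± 0.24 (limma adjusted p = 7.68e-04). The first was not called without naked heart replicate 2 (0.99) or Damaraland heart replicate 1 (1.0). Insr differed least: all hearts lay between 12.17 and 13.34, 0 of 6 pairs were called by limma, by voom also 0, and 3 of 6 passed an unadjusted p under 0.05. Those 3 were the differences from the mouse, of 0.62 ± 0.20 in the naked mole-rat (limma adjusted p = 0.011), 0.52 ± 0.17 in the Damaraland mole-rat (limma adjusted p = 0.014) and 0.67 ± 0.20 in the guinea pig (limma adjusted p = 0.0073).

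Naked hearts were low in Igfbp3 and Igfbp4. Igfbp3 had values of 7.35, 7.19 and 8.47 in naked hearts, 9.21, 9.17, 9.34, 8.61 and 10.28 in Damaraland hearts, 9.69, 10.29 and 9.45 in guinea pig hearts and 8.10, 8.06 and 8.34 in mouse hearts. Naked and mouse hearts overlapped at the low end, and Damaraland and guinea pig hearts at the high end. The naked mole-rat differed from the Damaraland mole-rat by -1.65 ± 0.32 (limma adjusted p = 3.24e-04) and from the guinea pig by -2.14 ± 0.36 (limma adjusted p = 8.17e-05). The guinea pig exceeded the mouse by 1.64 ± 0.36 (limma adjusted p = 9.34e-04). The Damaraland mole-rat exceeded the mouse by 1.15 ± 0.32 (limma adjusted p = 0.0049), which fell to 0.92 and was not called without Damaraland heart replicate 5. The naked mole-rat lay below the Damaraland mole-rat and the guinea pig for Igfbp3 in both tissues.

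Igfbp4 had values of 8.71, 8.27 and 7.43 in naked hearts, 9.16, 9.27, 8.59, 8.33 and 10.34 in Damaraland hearts, 10.67, 9.93 and 10.03 in guinea pig hearts and 10.18, 9.91 and 10.00 in mouse hearts. The naked hearts lay below both outgroups without overlap, and 4 of 5 Damaraland hearts did so too. The fifth, replicate 5, stood among the outgroups. The naked mole-rat differed from the guinea pig by -2.07 ± 0.40 (limma adjusted p = 3.02e-04) and from the mouse by -1.89 ± 0.40 (limma adjusted p = 6.02e-04), and the Damaraland mole-rat from the guinea pig by -1.07 ± 0.36 (limma adjusted p = 0.016). The remaining contrast, Damaraland minus mouse, was -0.89 ± 0.36 (limma adjusted p = 0.038) and was called without Damaraland heart replicate 5 (-1.19). Without that library, Igfbp4 met all 4 mole-rat against outgroup contrasts. The Damaraland to guinea pig call was in turn lost without Damaraland heart replicate 3 (-0.94) or 4 (-0.87) or guinea pig heart replicate 1 (-0.84).

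Fibroblasts are a known source of Igf2 and of IGF-binding proteins in heart, and their markers were summed beside these values. The 9 fibroblast and stellate genes with a row summed to 69752, 131504 and 59703 scaled reads in guinea pig hearts and to at most 56725 in any other heart. Much of the guinea pig sum was Col3a1 (28856 to 84917), and only Col3a1 and Lum stood above every other heart there. Col1a2, Dcn, Pdgfra and Pdgfrb overlapped the Damaraland range. Reln (37.0 to 93.5) lay below the Damaraland (191 to 465) and naked (115 to 192) ranges. Des, which cardiomyocytes also express, made up 10873 to 37129 scaled reads of the sum in the hearts of the other species. Without Des the sums were 46036 to 120948 in guinea pig hearts, 14654 to 45852 in Damaraland hearts, 13111 to 26633 in naked hearts and 8718 to 11639 in mouse hearts. Naked hearts, lowest in Igfbp4, thus did not have the lowest sum. Within the Damaraland mole-rat, replicate 5 had the highest sum without Des, 45852 against 14654 to 18003 in the others, and also the highest Igf2, Igfbp3 and Igfbp4. In guinea pig hearts, replicate 2 had the highest fibroblast sum and the highest Igfbp3, but Igf2 was highest in replicate 3 and Igfbp4 in replicate 1. The part of fibroblast content in these differences was not tested.

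Igfals and Igfbp1, genes chiefly of hepatocytes, were both highest in naked hearts. Igfals had values of 8.72, 8.57 and 8.87 in naked hearts, 7.12, 6.72, 6.33, 8.11 and 6.46 in Damaraland hearts, 7.69, 7.73 and 7.08 in guinea pig hearts and 7.56, 7.91 and 7.54 in mouse hearts. The naked range was above all others, with Damaraland heart replicate 4 standing above the rest of its species. Naked hearts exceeded Damaraland hearts by 1.77 ± 0.30 (limma adjusted p = 8.60e-05), the guinea pig by 1.22 ± 0.34 (limma adjusted p = 0.0051) and the mouse by 1.05 ± 0.34 (limma adjusted p = 0.012). It was the one member shifted in the naked heart alone, where 9.02% of all genes tested were, and 0 members were in the Damaraland heart (6.76%) or the mouse heart (10.4%). The mouse contrast of Igfals dropped below 1 without naked heart replicate 3 (0.97), mouse heart replicate 1 (0.99) or 3 (0.98), or with array weights (0.96). Igfbp1 was below the filter in heart and was not tested: naked hearts had 157, 102 and 23 reads, and no heart of another species had more than 6. Its values of 7.69, 7.09 and 7.29 in naked hearts stood above the highest of any other heart, 5.92. Since its reads came almost only from naked hearts, these levels are given without a test.

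In reads scaled to the library total (RPM), 7 hepatocyte genes (Alb, Ttr, Apoa1, Fgb, Cps1, Hnf4a and Tat) stood in naked hearts at 0.998% to 1.97% of their level in naked livers. Igfbp1 stood at 1.35%, inside that range, and Igfbp2 at 0.937%, just under it. Igfals stood at 11.5%, above it, as did Igf1 at 4.03%, Igf2 at 5.35%, Igfbp3 at 6.43% and Igfbp4 at 3.3%. Between the 3 naked hearts, the hepatocyte sum was 31653, 11236 and 29808 scaled reads, Igfbp1 132.8, 66.2 and 85.2, and Igfals 343, 302 and 389. So replicate 2, with the lowest hepatocyte sum, had the lowest value of both genes, but by a smaller margin for Igfals. In the other species the same hepatocyte genes stood at 0.0268% to 0.475%, apart from Apoa1 in the Damaraland mole-rat (5.84%) and the guinea pig (2892%). The part of liver transcripts in the Igfals difference between hearts was not tested.

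**Figure D4:**
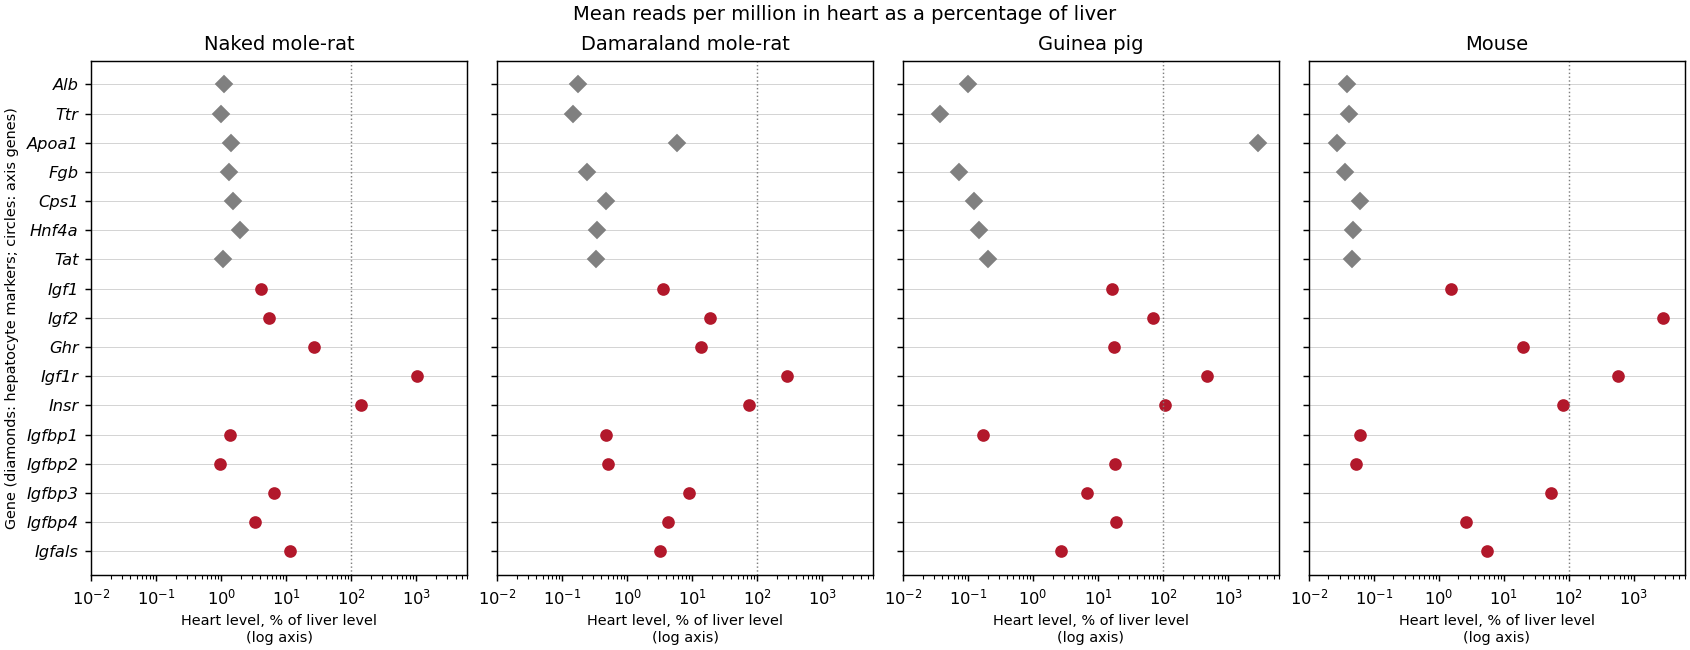
Mean RPM (reads scaled to the library total) in heart as a percentage of liver (log axis) for 7 hepatocyte genes (diamonds) and the 10 axis genes (circles), by species; the dotted line is 100%. In the naked mole-rat Igfbp1 and Igfbp2 lie among or beside the hepatocyte genes at about 1%, and Igf1r lies at 1010%.

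On the same scale the receptors were less weighted to the liver than Igf1, Igfbp1 and Igfals in each species. Igf1r was higher in heart than in liver, at 1010% in the naked mole-rat, 290% in the Damaraland mole-rat, 472% in the guinea pig and 567% in the mouse. Insr was near parity, at 74.9% to 139%, and Ghr stood at 13.5% to 26.9%. Igf2 was the gene whose balance between tissues differed most: heart held 5.35% of the liver level in the naked mole-rat, 18.5% in the Damaraland mole-rat, 69.8% in the guinea pig and 2767% in the mouse, whose livers held 0.381 and 2.50 RPM. Each tissue's table was normalised separately, so these percentages are descriptions without a test. Igfbp2, the remaining gene below the filter in heart, had 352, 101 and 36 reads in guinea pig hearts and 3 to 25 in the other hearts.

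Counted by pair in heart, 4 of 8 members tested were called between the mole-rats (29.4% of all genes tested), 5 between naked mole-rat and guinea pig (33%) and 3 between naked mole-rat and mouse (38.2%). Between Damaraland mole-rat and guinea pig 3 were called (29.7%), between Damaraland mole-rat and mouse 2 (34.9%), and between guinea pig and mouse 3 (32.1%). The contrast of naked mole-rat and guinea pig thus held the most calls, of Igf2, Igf1r, Igfbp3, Igfbp4 and Igfals. Averaged over species, 2 of 8 were called, both lower in the mole-rats (23.4% of all genes tested were called, and 12.6% lower): Igf2 by -1.29 ± 0.18 (limma adjusted p = 7.20e-06) and Igfbp4 by -1.48 ± 0.27 (limma adjusted p = 1.35e-04). For Igf2 this average set 1 high species against 3, whereas for Igfbp4 the outgroups differed from each other by 0.18. Without the shallow naked heart replicate 3, the counts were 2 of 8 for the average, 4 of 8 between the mole-rats and 20 of 48 over the pairs, as with it.

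Beyond the 10 genes, 39 further genes of growth hormone, insulin and IGF signalling were listed, of which 35 had a row and 27 were tested in each tissue. Averaged over species, 7 of 27 were lower and 0 higher in mole-rat hearts. Of all genes tested in heart, 12.6% were called lower and 10.8% higher. In mole-rat livers 6 of 27 were lower, where 13% of all genes tested were lower and 15.1% higher. The 1 call of a higher level, Pappa2, is set aside, since it passed the filter only through its level in the naked mole-rat. In heart, 2 of 27 were lower in both mole-rats against both outgroups (2.62% of all genes tested were). These were Grb10, an imprinted adaptor that restrains insulin and IGF receptor signalling, and Gab1, a docking protein of growth factor receptors. Grb10 means were 8.03 in naked, 8.70 in Damaraland, 10.67 in guinea pig and 10.98 in mouse hearts, an average difference of -2.46 ± 0.11 (limma adjusted p = 1.06e-11). Gab1 means were 9.60, 8.50, 10.81 and 10.63 in the same order, an average difference of -1.67 ± 0.14 (limma adjusted p = 1.83e-08), and Gab1 was also lower in the Damaraland heart alone.

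In liver, 1 of 27 was lower in both mole-rats (2.87% of all genes tested were): Stat5b, the transcription factor that carries the growth hormone signal to Igf1. Its means were 8.97 in naked, 9.33 in Damaraland, 10.46 in guinea pig and 10.35 in mouse livers, an average difference of -1.26 ± 0.15 (limma adjusted p = 1.01e-06). Stat5b did not follow Igf1 across species, since Igf1 was high in the naked mole-rat and low in the guinea pig. Stat5b was lower in mole-rat hearts on average too, by -1.35 ± 0.12 (limma adjusted p = 6.01e-08). Jak2, the kinase between receptor and Stat5b, differed by 0.22 ± 0.12 in liver (limma adjusted p = 0.11) and 0.21 ± 0.11 in heart (limma adjusted p = 0.095).

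**Figure D5:**
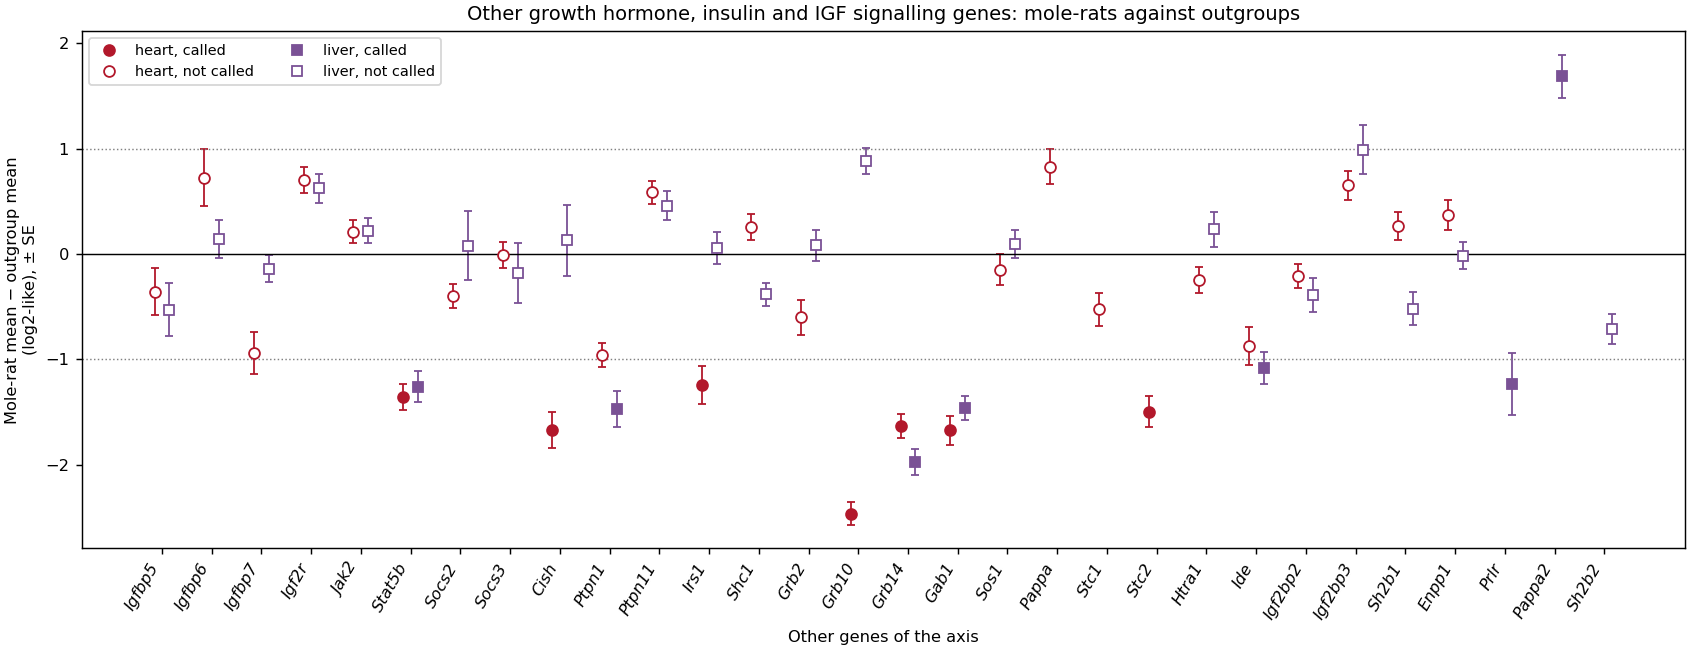
Mole-rat mean minus outgroup mean (log2-like scale, ± SE) for the further axis genes tested in heart (circles) or liver (squares); filled symbols are called by limma, and dotted lines mark a difference of 1. Grb10 in heart lies at -2.46. Pappa2 in liver is drawn at 1.69, but it passed the filter only through its naked mole-rat level, so its symbol is not taken as a test result.

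Other genes were shifted in 1 species alone. Grb14, an adaptor that inhibits the insulin receptor, was low in naked mole-rats in both tissues: its means were 7.55 in naked hearts against 10.53, 9.75 and 11.58 in Damaraland, guinea pig and mouse hearts, and 6.47 in naked livers against 9.57, 9.96 and 10.02. In heart it was also high in the mouse alone, as was Cish, a growth hormone-induced inhibitor of its own receptor, with 2120 mean scaled reads in mouse hearts against 17.2, 324 and 69.8 in naked, Damaraland and guinea pig hearts. Pappa2, a protease that frees IGF from IGFBP3 and IGFBP5, had 190.9 mean scaled reads in naked livers against 3.15 in Damaraland and 5.90 in mouse livers, and was listed at 0 in every guinea pig liver. Since it passed the filter only through the naked livers, these levels are given without a test. Prlr, the prolactin receptor, was low in Damaraland livers alone, at 6.0 against 10.20, 8.26 and 10.40 in naked, guinea pig and mouse livers. In guinea pigs, Igfbp5 was high in liver alone (10.33 against 7.50 to 8.45), and in heart Igfbp7 was high (11.71 against 10.23 to 10.65) and Ptpn11, a phosphatase of growth factor signalling, low (10.77 against 12.17 to 12.62).

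The genes most like the widest-ranging members over the 14 libraries of a tissue were taken by Pearson correlation, as a description. All points share libraries and species differences, so no test is given. Liver Igf2 was most like Maoa (r = 0.99), Psat1 (0.98) and Cyp1a1 (0.98), and 124 genes had r above 0.9 with it. Cyp1a1 means were 15.14 in naked, 12.86 in Damaraland, 13.69 in guinea pig and 5.66 in mouse livers. Liver Igfbp3 was most like Mpzl1 (0.98), Flt1 (0.97) and Tmem209 (0.97), Igfbp1 like Il1rn (0.94), Tmem214 (0.93) and Dnajc4 (0.92), and Igfbp2 like Cog8 (0.91), Atp5l (0.89) and Tmbim4 (0.88). Igfbp2 had the fewest close companions, with 1 gene above 0.9, and Igfbp1 had 9. In heart, Igf2 was most like Met, Src and Tmem28 (0.98 to 0.99, with 151 genes above 0.9), Igfbp3 like Psmc4, Ecm2 and Mon1a (0.93 to 0.96), Igfbp4 like Cavin2, Fkbp8 and Mapk14 (0.90 to 0.92) and Igfals like Dhtkd1, Lats1 and Uimc1 (0.93).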

How the data were processed

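Heart and liver libraries were grouped by the species and tissue in their labels. The submitters' processing notes name cutadapt, Salmon 013.1, DESeq2 and the build GRCm38; the transcript sets of the other species and the assignment of genes across species are not given in the sources used here. The authors deposited 1 table per tissue of log2-like, variance-stabilised counts, and 26 further columns of per-sample values were not used. Inverting the transform gave whole reads for 100% of values in every library, with 1 step per library for all genes. The transform thus held no separate scaling of single genes. Whether reads were adjusted before it for transcripts that differ in length between species is not given in the sources used here. Symbols were matched for 13921 of 13928 mouse gene identifiers. No coordinates are given, since the gene table at hand belongs to another assembly.

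The log2-like values were fitted with limma 3.58.1 (R 4.3.3), with 1 coefficient for each species and variances moderated along a trend with expression. P-values were adjusted by Benjamini and Hochberg over all genes tested (10667 in heart, 10887 in liver: mean over all libraries at least 1 above the value of 0 reads). A call required a difference of 1 or more in either direction at an adjusted p under 0.05. SE is the moderated standard error and intervals are 95%. A gene shifted in both mole-rats was called in all 4 contrasts with an outgroup with the same sign, and a gene shifted in 1 species alone against each of the other species. The average contrast is the mean of the mole-rat species minus that of the outgroups. The fit was tested on simulated data. Members and lists were chosen with earlier results of these data known. All 10 members are named; of the further axis genes, those shifted in both mole-rats (at most 6, by the average contrast) and at most 2 per species alone; and for the 4 widest-ranging members per tissue the 3 genes of highest correlation. Other genes named (Jak2) were chosen after their values were seen. Alternatives were other thresholds, filters, scalings and variance models, voom on the recovered reads, the replicate number as a block, and leaving out each library.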

Additional observations from a re-analysis of the deposited data

Results flagged for a closer look

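In Damaraland livers, Igfals of replicate 2, at 10.96, lay apart from the other 4 libraries, which ran from 11.19 to 11.22. It was the 1 library so placed among 30 sets of a gene in a species and tissue with 4 or 5 libraries, where chance places about 1 in 20.

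For 5 gene and species-pair combinations, the libraries of one species all lay on one side of the other species in heart and all on the opposite side in liver. That is 5 of 60 combinations of the 10 members, or 8.33%, beside 7.73% over all genes with a row in both tissues, and among genes tested in both tissues 3 of 48, or 6.25%, beside 9.08%. The tables were normalised separately and the difference between tissues was not tested. For Igf1, guinea pig minus mouse was 0.75 in heart and -1.99 in liver. For Igf2, naked minus guinea pig was -2.74 in heart and 0.93 in liver. For Igf1r, naked minus Damaraland was 1.09 in heart and -0.52 in liver. For Igfbp2, which was below the filter in heart, guinea pig minus mouse was 1.51 in heart and -3.83 in liver, and naked minus mouse was 0.32 in heart and -2.42 in liver.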

How the results depend on the processing

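Of 50 called differences of the members, the averages included, 37 were called under every setting other than limma's treat in which they were fitted, and 0 changed sign. Not every difference was fitted under every setting: the averages were not fitted where only the species compared were used. With treat against a difference of 1, 26 lost their call. The size threshold decided most counts. Without it, both-mole-rat calls in heart were 1, heart pair calls 32, liver average calls 5, liver calls between the mole-rats 8 and liver pair calls 38. With limma's treat against a difference of 1, heart average calls were 0, heart calls between the mole-rats 0, heart pair calls 4 and liver average calls 1. The count in both mole-rats in heart was 1 (Igfbp4) by voom and 1 with the replicate number as a block. Leaving out single libraries gave 2 to 2 average calls, 0 to 1 both-mole-rat calls (1 without Damaraland heart replicate 5), 3 to 5 calls between the mole-rats and 19 to 21 pair calls in heart; in liver, 2 to 3, 0 to 0, 4 to 6 and 24 to 27. Values near 0 changed sign: liver Igf1 naked minus mouse (0.0361 with centred libraries; -0.16 to 0.10 with a library left out), its average (-0.16 with quantile normalisation; -0.0726 to 0.101), its Damaraland minus guinea pig difference (-0.0824 with quantile normalisation; -0.12 to 0.23) and heart Igf2 Damaraland minus mouse (-0.0448 to 0.459). The cause was not tested. Libraries of the same number in different species are different animals by their labels. Their deviations correlated at -0.26 to 0.30 over 18 heart pairs and -0.23 to 0.15 over 16 liver pairs. Whether the number marks a shared step of handling is not given in the sources used here. The block called Igfbp4 in heart, Damaraland minus mouse (-1.02), and changed no other member's call. Under the changed settings, all genes were counted for the average contrast only, so the other member counts there have no background share. Over all genes, voom called 3841 in the heart average against 2493, no size threshold 7182 and treat 1194. In liver, no size threshold gave 7407 against 3056 and treat 1705. Depth limits Igf2 in mouse liver and Igfbp1 and Igfbp2 in heart, where reads are few.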

Other observations

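In heart, 8 of the 35 further axis genes with a row were below the filter on low values. Of those with most of their reads in 1 species, 2 are given here, both chosen after their values were seen. Igf2bp1 (8.97 mean scaled reads in naked hearts, at most 0.885 elsewhere) and Irs4 were also of this kind, at lower levels. Insrr, the insulin receptor-related receptor, had 156 mean scaled reads in naked hearts against 17.4 in Damaraland and 9.87 in guinea pig hearts, and was listed at 0 in the 3 mouse hearts. Prlr, the prolactin receptor, had 231 in mouse hearts against 17.2 in naked, 1.94 in Damaraland and 0.217 in guinea pig hearts.

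The spread between animals of a species was wider for the binding proteins and Igfals than for the receptors. In heart, the residual SD was 0.60 for Igfbp4, 0.53 for Igfbp3 and 0.49 for Igfals, above 95.3% or more of the genes tested, and 0.21 to 0.33 for Insr, Igf1r and Ghr, the median of all genes being 0.25. In liver it was 1.23 for Igfbp2 and 1.0 for Igfbp1 but 0.31 for Igfbp4 and 0.32 for Igfbp3, and 0.20 to 0.25 for Igf1r, Insr and Ghr.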
